A study of Arabidopsis thaliana with 8 samples.

Results

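LTP3 (locus AT5G59320) and LTP4 (locus AT5G59310) are neighbouring Arabidopsis thaliana genes for non-specific lipid transfer proteins. They were followed here on Affymetrix ATH1 arrays as 1 probe set each, 2 of the 22746 probe sets that are not controls. The probe sets, 247717_at for LTP3 and 247718_at for LTP4, were taken by these identifiers, which were supplied together with the loci and symbols. The platform's annotation table used here pairs neither of them with a gene, so loci and symbols both rest on what was supplied. Both genes were chosen by the measured differences between these groups, above all sfr3 against wild type in the cold, so their levels and differences are given as a description, with no test. Tests are given only for other genes.

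Non-specific lipid transfer proteins are small, secreted, cysteine-rich proteins with a hydrophobic cavity that binds lipids. They are abundant in the epidermis and are thought to help carry lipids to the cuticle, the waxy layer on aerial surfaces. LTP3 and LTP4 are known as genes that respond to abscisic acid (ABA), drought and salt, and LTP3 is a known target of MYB96, a transcription factor that also activates wax synthesis genes. The sfr3-1 mutation is known to affect ACC1, the gene for the acetyl-CoA carboxylase of the cytosol. That enzyme makes the malonyl-CoA used to elongate fatty acids for cuticular wax.

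The study asked how an sfr3 mutant (sensitive to freezing) responds to cold acclimation, the gain in freezing tolerance after a time at low, non-freezing temperature. The 8 arrays fall into 4 groups of 2: sfr3 in the cold, sfr3 kept warm, wild type in the cold and wild type kept warm. The sfr3 plants came from chemical mutagenesis (EMS) in the Col-0 background, and the wild type was Col-0. Seeds of all groups were kept at 4 °C for 48 h after sowing. All plants grew in compost in short days (8 h light, 16 h dark) at 20 °C and a humidity of 70%, and were collected after 38 days, at growth stage 1.14.

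How cold the treatment was, and how long it lasted, was not stated in the labels. These name the aerial parts as what was collected from sfr3 and the whole rosette as what was collected from wild type, so this difference and the genotype cannot be told apart. Nothing in the labels says that replicates came from separate plantings, so the p-values below reflect no more than how far these arrays of a group lie apart, and that spread may be technical. The material was bulk tissue, in which fewer cells of a type and less RNA per cell cannot be told apart.

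One array stood apart. Its label is cold sfr3 replicate 1, and its median signal was 52.4, against 36.6 to 39.0 for the other 7. The background level of an array, taken as the 95th percentile over 27 dark control probe sets, was 35.4 there and 6.37 to 11.3 elsewhere. Replicates differed by a median of 0.552 (absolute log2) in cold sfr3, against 0.231 in warm sfr3, 0.179 in cold wild type and 0.214 in warm wild type. Values of LTP3 and LTP4 that rest on this array are given with and without it. Of the leaf markers, 4 of 9 were named by the annotation table (the light-harvesting genes LHCB4.1, LHCB4.2 and LHCB4.3, and RCA). Their summed signal was 18890 to 21430 in cold sfr3, 19990 to 21390 in warm sfr3, 16730 to 17370 in cold wild type and 19020 to 24890 in warm wild type, so all 4 groups held leaf RNA. No marker of epidermis, flower or seed was named by it. Probe sets without a name there, as those of LTP3 and LTP4, can hold such genes, so a gene not named is not analysed here rather than absent from the array.

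LTP3 was far brighter in sfr3 plants in the cold than in any other group. Its signal was 2387 and 3205 in cold sfr3, 308.6 and 364.7 in warm sfr3, 233 and 175 in cold wild type, and 344.5 and 423 in warm wild type. The means were 2796 ± 578 in cold sfr3, 337 ± 39.7 in warm sfr3, 204 ± 40.8 in cold wild type and 384 ± 55.6 in warm wild type (SD, n = 2 each). Both cold sfr3 arrays lay above all others, and both cold wild-type arrays lay below all others. The warm arrays of the genotypes overlapped. In order of level, cold sfr3 came first, then warm wild type and warm sfr3, which did not differ beyond their spread, and then cold wild type.

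LTP4 had the same order at the extremes and a deeper low in cold wild type. Its signal was 2518 and 1765 in cold sfr3, 316 and 550.1 in warm sfr3, 87.5 and 51.5 in cold wild type, and 283 and 512 in warm wild type. The means were 2142 ± 533 in cold sfr3, 433 ± 166 in warm sfr3, 69.5 ± 25.5 in cold wild type and 398 ± 162 in warm wild type (SD, n = 2 each). Again both cold sfr3 arrays were above, and both cold wild-type arrays below, every other array, and the warm arrays of sfr3 and wild type overlapped. Every one of these signals was above the background level of its array, and both probe sets passed the minimum mean signal of 26.7 set for testing, which left 13648 probe sets.

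**Figure D1:**
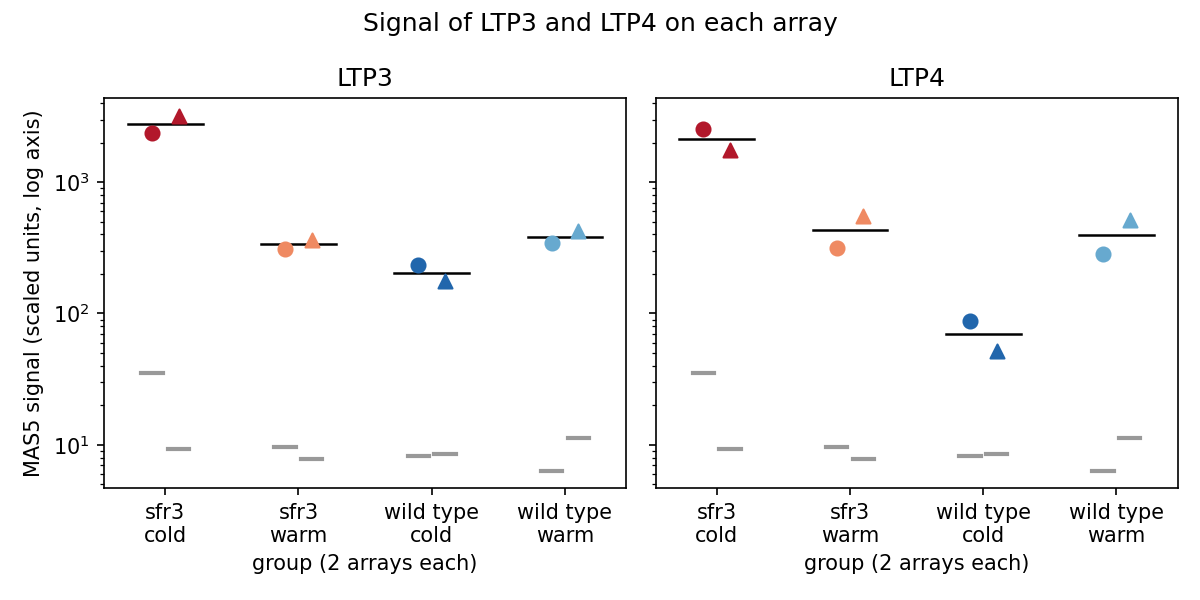
MAS5 signal (scaled units, log axis) of LTP3 on the left and LTP4 on the right in each of the 4 groups; circles are replicate 1, triangles replicate 2, black lines group means, and grey dashes the background level of each array. Cold sfr3 arrays lie at 1765 to 3205, cold wild-type arrays at 51.5 to 233, and the warm arrays of both genotypes between them at 283 to 550.1.

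Cold and warm plants differed in opposite directions in the genotypes. Differences are given on the scale of log2(signal + 2.17), where 2.17 is the 10th percentile of all signals, and their standard errors come from a model fitted to all 8 arrays. In sfr3, LTP3 was higher in the cold than in the warm by log2 3.04 (SE 0.23), a ratio of group means of 8.31, with 6.55 to 10.4 over the pairs of single arrays. LTP4 was higher in cold sfr3 by log2 2.33 (SE 0.38), a ratio of means of 4.95, with 3.21 to 7.98 over array pairs.

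In wild type, both genes were lower in the cold than in the warm. The log2 difference of LTP3 was -0.91 (SE 0.23), and the warm mean was 1.88 times the cold mean (1.48 to 2.41 over array pairs). For LTP4 the difference was -2.46 (SE 0.38), and the warm mean was 5.72 times the cold mean (3.23 to 9.95 over array pairs). The difference of LTP3 minus that of LTP4 was 0.70 in sfr3, where LTP3 had the larger difference, and 1.55 in wild type, where LTP4 had the larger one in size.

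Between the genotypes, the difference was in the cold arrays. Cold sfr3 exceeded cold wild type by log2 3.76 (SE 0.23) for LTP3, a ratio of means of 13.7, with 10.2 to 18.3 over array pairs. The corresponding values for LTP4 were log2 4.93 (SE 0.38), a ratio of 30.8 and a range of 20.2 to 48.9. In the warm, sfr3 minus wild type was -0.19 (SE 0.23) for LTP3 and 0.13 (SE 0.38) for LTP4, both under 1 SE. The cold difference of sfr3 minus that of wild type was 3.95 (SE 0.32) for LTP3 and 4.80 (SE 0.54) for LTP4.

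Among the 13648 probe sets, LTP4 had the largest log2 excess of sfr3 over wild type in the cold, and LTP3 the rank 4. For the difference between the cold responses, LTP4 again had rank 1 and LTP3 rank 5 (3 and 20 of 22746 with no signal filter). Neither gene was as extreme within a genotype: for cold against warm in sfr3 they ranked 187 (LTP4) and 67 (LTP3) from the highest, and in wild type 315 and 1925 from the lowest. Without cold sfr3 replicate 1, the excess over wild type in the cold was 4.67 for LTP4 (rank 1) and 3.97 for LTP3 (rank 3). With that array as the single cold sfr3 sample, these values were 5.18 (rank 2) and 3.55 (rank 32). For the difference between the cold responses, LTP4 had rank 1 and LTP3 rank 2 without replicate 1. With replicate 1 alone they had ranks 3 and 41. For cold against warm in sfr3, the ranks of LTP4 and LTP3 were 232 and 54 without replicate 1, and 312 and 221 with it alone.

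The replicates of LTP3 lay closer together than those of LTP4. The higher replicate of LTP3 was 1.34 times the lower in cold sfr3, 1.18 times in warm sfr3, 1.33 times in cold wild type and 1.23 times in warm wild type. For LTP4 the ratio was 1.43 in cold sfr3, 1.74 in warm sfr3, 1.70 in cold wild type and 1.81 in warm wild type. Its residual SD on the log2 scale was 0.52, against 0.25 for LTP3 and a median of 0.292 over tested probe sets. In warm sfr3, cold wild type and warm wild type the log2 replicate difference of LTP4 was at percentile 94.4, 95.7 and 96.2 of all tested probe sets. In those 3 groups the same replicate was the higher one for both genes, and in cold sfr3 LTP3 was higher on replicate 2 and LTP4 on replicate 1.

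Few probe sets were higher in the cold in sfr3 and lower in the cold in wild type. All cold arrays were above all warm arrays in sfr3, and below them in wild type, for 216 of the 13648 (1.58%), both genes included. Without cold sfr3 replicate 1, when 1 array less has to be separated, this held for 395 (2.89%), again with both. A log2 difference of at least 1 in sfr3 together with one of at most -1 in wild type was found for 16 probe sets. LTP4 is one of these, while LTP3, at -0.91 in wild type, lies just outside. The other order, at most -1 in sfr3 and at least 1 in wild type, was found for 7, and for 4 without cold sfr3 replicate 1. Leaving out cold sfr3 replicate 1, 4 of the 16 still met both limits, and no other probe set did. These were LTP4, AT5G32510 and a pair of probe sets that have no gene name here. Most of the 16 passed the minimum mean signal only through cold sfr3. Among them were AT5G32510 and the unnamed probe set that is not described below. In both AT5G32510 and that probe set, the cold and warm wild-type arrays overlapped.

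One of the unnamed probe sets, singled out after its values were seen, had a signal of 156 and 110.3 in cold sfr3, 35.0 and 32.4 in warm sfr3, 13.9 and 9.01 in cold wild type, and 55.7 and 53.0 in warm wild type. Both cold sfr3 arrays were the highest and both cold wild-type arrays the lowest, as for LTP4.

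**Figure D2:**
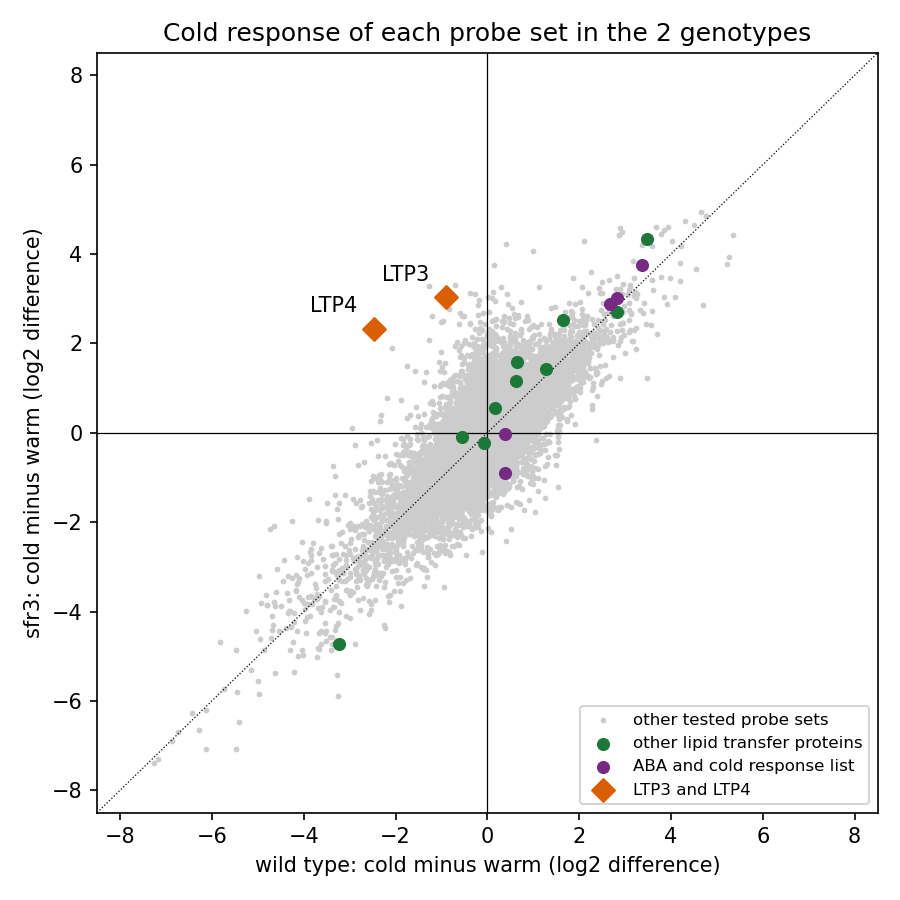
Cold minus warm in sfr3 (vertical axis) against cold minus warm in wild type (horizontal axis), both as log2 differences, with 1 point for each of the 13648 tested probe sets and the dotted line marking equal responses. LTP3 (3.04 in sfr3, -0.91 in wild type) and LTP4 (2.33 in sfr3, -2.46 in wild type) lie in the upper left. The other lipid transfer protein genes (green) and the ABA and cold response list (purple) lie between -1.50 (AT1G62510) and 0.95 (AT2G44300) from the line. AT1G62510 and LEA4-5 were under the background level on cold sfr3 replicate 1.

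The other lipid transfer protein genes were measured as a comparison from a list of 45 loci without LTP3 and LTP4. The annotation table named a probe set for 18 of them, and 10 were bright enough to test. Of the tested genes, only AT5G01870 (LTP10) is numbered as LTP3 and LTP4 are. The rest are listed as other kinds, among them type 2 and LTPG genes, so the list says little about genes numbered like the pair. For the 10 tested genes and all later genes, p-values are from limma, adjusted by the Benjamini-Hochberg method over all 13648 probe sets. A gene was called at an adjusted p below 0.05. For cold against warm in sfr3, 6 of the 10 rose, 1 fell and 3 did not pass, with a median log2 difference of 1.29. Over all tested probe sets 31.2% were called in this comparison (14.9% higher and 16.4% lower), with a median of 0.0589. Without cold sfr3 replicate 1 the list again had 7 calls, without cold sfr3 replicate 2 it had 9, and without warm sfr3 replicate 1 or 2 it had 5 or 4.

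In wild type, 4 of the 10 rose with cold, 1 fell and 5 did not pass, with a median of 0.63, where 26.3% of all tested probe sets were called (13.0% higher and 13.3% lower) and their median was -0.00411. None of the 10 was called between cold sfr3 and cold wild type (0.125% of all), between warm sfr3 and warm wild type (0.0% of all) or for the difference between cold responses (0.0366% of all). At an unadjusted p below 0.05 those comparisons held 1775, 102 and 803 of all tested probe sets. The smallest adjusted p of the list for the difference between responses was 0.733. Without cold sfr3 replicate 1 or 2 the calls in wild type numbered 8. With replicate 1 as the single cold sfr3 array, 5 of the 10 were called between the genotypes in the cold and 4 for the difference between responses, when 5372 and 3802 of all tested probe sets were called.

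AT4G12490 was the largest riser of the list in both genotypes. Its signal was 1250 and 2041 in cold sfr3, 99.4 and 59.6 in warm sfr3, 1458 and 1167 in cold wild type, and 114 and 115 in warm wild type. The cold difference was log2 4.34 in sfr3 (adjusted p = 2.19e-05) and 3.49 in wild type (adjusted p = 6.77e-05). Unlike LTP3 and LTP4, its cold arrays lay above its warm arrays in both genotypes.

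AT1G48750 had 360 and 371 in cold sfr3, 69.1 and 55.9 in warm sfr3, 214 and 226 in cold wild type, and 55.9 and 83.2 in warm wild type. It rose with cold by log2 2.51 in sfr3 (adjusted p = 0.000117) and by 1.66 in wild type (adjusted p = 0.00106). Its cold arrays were higher in sfr3 than in wild type, without a call. AT4G12500 rose by 2.71 in sfr3 (adjusted p = 0.00562) and by 2.83 in wild type (adjusted p = 0.00486), and AT5G48490 by 1.42 (adjusted p = 0.00568) and 1.29 (adjusted p = 0.00982). Leaving out warm sfr3 replicate 2 ended the call of AT4G12500 in sfr3 (adjusted p = 0.0563). Leaving out warm sfr3 replicate 1 ended that of AT5G48490 in sfr3 (adjusted p = 0.0618), and leaving out cold wild-type replicate 2 or warm wild-type replicate 1 ended its call in wild type (adjusted p = 0.0966 and 0.1).

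AT2G44300 and AT5G01870 were called in sfr3 (log2 1.59, adjusted p = 0.0221, and 1.16, adjusted p = 0.024) and not in wild type (0.64, adjusted p = 0.324, and 0.62, adjusted p = 0.192). For both genes cold sfr3 replicate 1 was the brightest array, at 184 against 64.9 on replicate 2 for AT2G44300 and at 185 against 100.0 for AT5G01870. The test of the difference between the cold responses passed for neither with all arrays, but did for both with replicate 1 as the single cold sfr3 array (adjusted p = 0.00464 and 0.0451). Both calls in sfr3 were lost without warm sfr3 replicate 1 (adjusted p = 0.101 and 0.0747) or replicate 2 (0.103 and 0.138). In wild type both genes were called when either cold sfr3 array was left out (adjusted p = 0.0269 to 0.0379).

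AT1G62510 went the other way. It had 10.7 and 25.7 in cold sfr3, 485 and 514 in warm sfr3, 54.0 and 41.3 in cold wild type, and 472 and 448 in warm wild type. It fell with cold in sfr3 (log2 -4.73, adjusted p = 2.81e-05) and in wild type (log2 -3.22, adjusted p = 0.000199). The 10.7 on cold sfr3 replicate 1 was under the background level of that array, 35.4, so the size of the fall in sfr3 is uncertain. The remaining 3 tested genes, AT3G18280, AT2G45180 and AT1G62790, had differences between -0.55 and 0.56 in both genotypes and were not called. Of 19 settings, 5 called AT2G45180 as lower in cold wild type (adjusted p = 0.022 to 0.037), 2 called AT3G18280 as higher in cold sfr3, without warm sfr3 replicate 1 (0.88, adjusted p = 0.0444) or cold sfr3 replicate 2 (0.62, adjusted p = 0.046), and 1 called AT1G62790 as lower in cold sfr3, without cold sfr3 replicate 2 (-0.53, adjusted p = 0.0444).

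The other 8 genes of the list were too dim to test. AT2G18370 had 36.6 and 27.0 in cold sfr3, 15.4 and 17.6 in warm sfr3, 25.6 and 22.2 in cold wild type, and 16.9 and 19.9 in warm wild type. AT3G58550 had 34.0 and 30.5 in cold sfr3 and 26.0 to 35.2 in cold wild type. On cold sfr3 replicate 1, the array with the background level of 35.4, AT2G15325, AT5G38160, AT5G38170 and AT1G66850 read 37.6, 92.1, 61.1 and 44.6, against 2.10, 20.7, 3.97 and 7.40 on cold sfr3 replicate 2. AT5G38195 read 28.3 and 3.43 on these arrays, and AT5G38180 had no signal above 4.51.

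**Figure D3:**
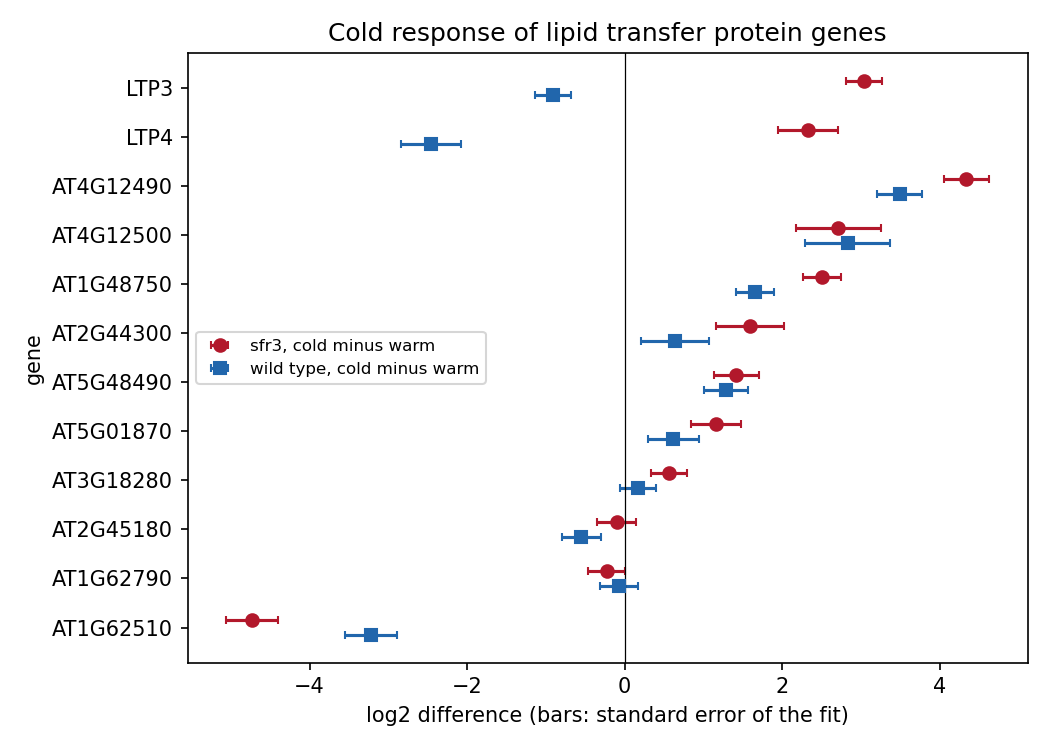
Cold minus warm (log2 difference, bars are the standard error of the fit) in sfr3 (red circles) and wild type (blue squares) for LTP3, LTP4 and the 10 other tested lipid transfer protein genes. In LTP3 and LTP4 the genotypes lie on opposite sides of 0, while for the genes called in both genotypes (AT4G12490, AT4G12500, AT1G48750, AT5G48490 and AT1G62510) they lie on the same side.

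Of the list of genes known to respond to ABA, cold and drought, 5 of 35 had a named probe set, and all 5 were tested. COR15A and COR15B, whose proteins shield chloroplast membranes from freezing damage, and LTI30, a dehydrin gene, rose with cold in both genotypes, and COR47, a dehydrin gene, and LEA4-5 did not pass in either. These are 3 of 5 called in each genotype, where 31.2% of all tested probe sets were called in sfr3 and 26.3% in wild type. COR15A had 10605 and 10507 in cold sfr3, 801.5 and 766 in warm sfr3, 7421 and 8338 in cold wild type, and 564 and 1028 in warm wild type. Its cold difference was log2 3.75 in sfr3 (adjusted p = 3.31e-05) and 3.37 in wild type (adjusted p = 5.61e-05).

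The differences between the cold responses were 0.38 for COR15A, 0.21 for COR15B and 0.18 for LTI30, against 3.95 for LTP3 and 4.80 for LTP4. None of the 5 was called for that difference (adjusted p = 0.759 to 0.875; 0.0366% of all tested probe sets), nor between the genotypes in the cold (0.125% of all) or in the warm (0.0% of all), which is at the level of all probe sets. With cold sfr3 replicate 1 as the single cold sfr3 array, cold sfr3 minus cold wild type was log2 -0.94 for COR47 and -2.34 for LEA4-5. LEA4-5 read 5.76 on that array, under its background level of 35.4, so its value there is not a measured drop. On cold sfr3 replicate 2 it read 52.1, against 53.3 and 26.7 in cold wild type. MYB96 was not analysed here.

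Of the cuticle list, which held ACC1, 1 gene of 30 had a named probe set, WSD1, which encodes an enzyme of wax ester synthesis. It had 39.8 and 123 in cold sfr3, 20.9 and 10.5 in warm sfr3, 9.16 and 1.48 in cold wild type, and 7.90 and 2.57 in warm wild type. Both cold sfr3 arrays were the highest, as for LTP3 and LTP4. Its cold and warm wild-type arrays overlapped. In each of these wild-type groups only 1 of the 2 arrays was above background, so a fall with cold could not be judged. WSD1 passed the minimum mean signal only through cold sfr3, so no test is given for it. ACC1 itself was not analysed here.

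Markers of other tissues did not stay level across the groups. Of the root list, 2 of 5 genes had a named probe set, PYK10 and EXPA7, and their summed signal was 65.1 to 205 in cold sfr3, 205 to 208 in warm sfr3, 54.0 to 57.3 in cold wild type and 151 to 208 in warm wild type. PYK10, a beta-glucosidase gene, fell with cold in sfr3 (log2 -1.55, adjusted p = 0.0218) and in wild type (log2 -2.33, adjusted p = 0.00342). It was not called between cold sfr3 and cold wild type (adjusted p = 0.369). EXPA7, an expansin gene too dim to test, had 93.2 and 25.1 in cold sfr3, 6.32 and 5.43 in warm sfr3, 25.2 and 25.6 in cold wild type, and 12.5 and 18.9 in warm wild type, so that its cold arrays lay above its warm arrays in both genotypes, the opposite of PYK10. Without warm sfr3 replicate 1 or 2 the call of PYK10 in sfr3 was lost (adjusted p = 0.113 and 0.103). With replicate 1 as the single cold sfr3 array it was called between the genotypes in the cold (1.82, adjusted p = 0.000253). The guard cell gene FMA, 1 of 5 on its list, had 36.0 to 77.9 in cold sfr3, 36.9 to 43.3 in warm sfr3, 42.6 to 49.5 in cold wild type and 39.3 to 40.9 in warm wild type. The part of these markers in the levels of LTP3 and LTP4 was not tested.

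LTP3 and LTP4 lie next to each other on chromosome 5, with 0 annotated protein-coding genes between them in the gene table of assembly TAIR10.1. The 5 nearest measured genes on each side were compared with the pair, and together they reach over 23 protein-coding genes. Of these, 6 passed the minimum mean signal, AT5G59360 only through cold sfr3, so no test is given for it. None of the other 5 was called between cold sfr3 and cold wild type, where 0.125% of all tested probe sets were, and none for the difference between cold responses, where 0.0366% were, so these counts are at the level of all probe sets. AT5G59250 had log2 -0.73 for cold sfr3 minus cold wild type (adjusted p = 0.363), or -1.16 with replicate 1 as the single cold sfr3 array (adjusted p = 0.000604). The signal of AT5G59360 was 172 for cold sfr3 replicate 1, against 4.89 to 31.1 for the remaining 7 arrays.

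On the LTP3 side, AT5G59350 rose with cold in sfr3 (log2 1.39, adjusted p = 0.00562) and in wild type (1.21, adjusted p = 0.0115). AT5G59400 rose in sfr3 (0.69, adjusted p = 0.0448) and had 0.65 in wild type (adjusted p = 0.0638). The call of AT5G59350 in wild type was lost whichever of the 4 wild-type arrays was left out (adjusted p = 0.0523 to 0.104), and that of AT5G59400 in sfr3 without any 1 of the 8 arrays except cold sfr3 replicate 2 (adjusted p = 0.0612 to 0.165). AT5G59350 had 222 and 191 in cold sfr3, 57.9 and 103 in warm sfr3, 231 and 186 in cold wild type, and 89.3 and 87.1 in warm wild type, so its cold arrays overlapped between the genotypes, unlike those of LTP3 and LTP4.

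AT5G59330, the gene next to LTP3, was below the minimum for testing. It had 24.5 and 37.8 in cold sfr3, 0.986 and 7.12 in warm sfr3, 12.7 and 3.75 in cold wild type, and 2.40 and 4.05 in warm wild type. Its cold sfr3 arrays were the highest, although replicate 1 was under the background level of that array. Both warm sfr3 arrays and both warm wild-type arrays were under background as well, so the size of its cold differences is uncertain. With all 22746 probe sets tested, it was called for cold against warm in sfr3 (log2 2.59, adjusted p = 0.0423) and not for cold sfr3 against cold wild type (1.80, adjusted p = 0.43) or for the difference between responses (1.78, adjusted p = 0.753). AT5G59305, the gene next to LTP4, was at 1.02 to 4.26 on all arrays, below background.

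**Figure D4:**
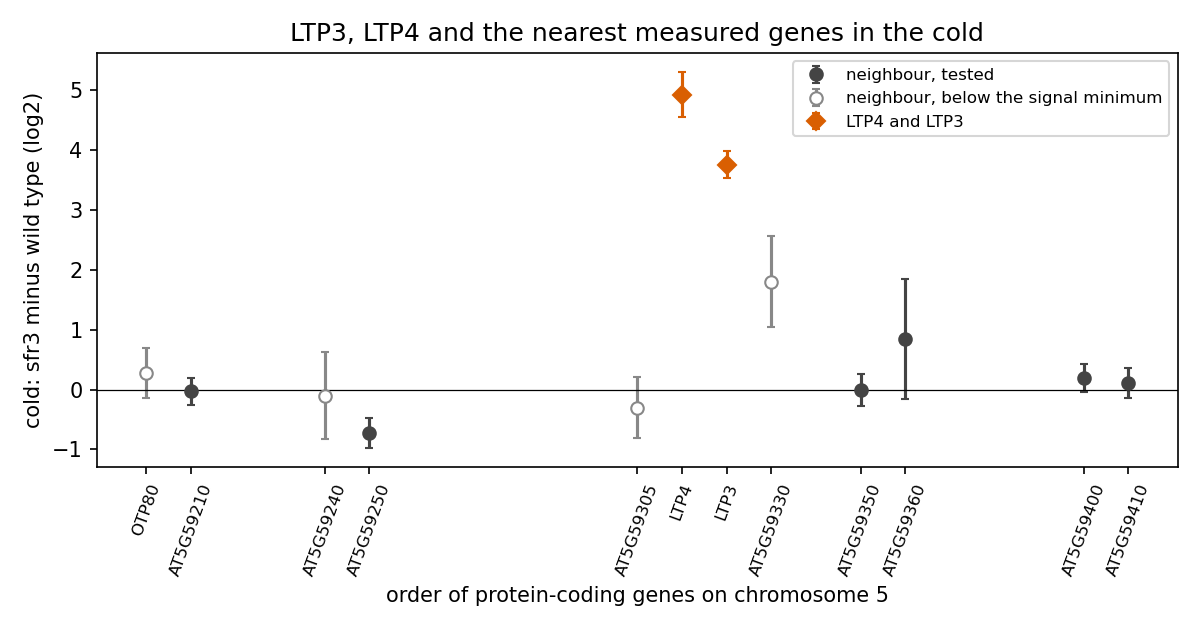
Log2 difference of sfr3 minus wild type in the cold (bars are the standard error of the fit) for LTP4, LTP3 and the 5 nearest measured genes on each side, in the order of protein-coding genes on chromosome 5; open circles are genes below the signal minimum. LTP4 at 4.93 and LTP3 at 3.76 stand above their neighbours, the next highest being AT5G59330 at 1.80. AT5G59360, a filled circle at 0.84, passed the signal minimum only through cold sfr3.

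Likeness of pattern was measured as Pearson's r of log2 values over the 8 arrays, which include the group differences that chose LTP3 and LTP4, and is given as a description. The r between LTP3 and LTP4 was 0.905. Among the other 13647 probe sets, LTP4 had rank 26 by likeness to LTP3, and LTP3 had rank 25 by likeness to LTP4. Without cold sfr3 replicate 1 the r was 0.859, with ranks 73 and 78.

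Among the 7336 tested probe sets paired with 1 gene, the genes most like LTP3 were AT2G16630 (r = 0.989), AT5G47330 (0.976), AT5G53710 (0.976), AT4G30470 (0.968) and ATG8D (0.966), an autophagy gene. AT2G16630 had 475 and 572 in cold sfr3, 75.7 and 82.8 in warm sfr3, 46.9 and 57.2 in cold wild type, and 76.5 and 81.1 in warm wild type. AT5G47330 had 258 and 255 in cold sfr3, 43.9 and 28.9 in warm sfr3, 16.6 and 12.8 in cold wild type, and 29.5 and 26.3 in warm wild type. Like LTP3, both had their 2 highest arrays in cold sfr3 and their 2 lowest in cold wild type. AT5G47330 and AT5G53710 passed the minimum mean signal of 26.7 only through cold sfr3.

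The genes most like LTP4 were AT1G63840 (r = 0.992), AT1G73820 (0.952), UBP19 (0.941), a ubiquitin protease gene, AT1G22550 (0.937) and ATG8D (0.937). Their signals covered a much narrower range than those of LTP4. AT1G63840 averaged 135 ± 0.951 in cold sfr3, 105 ± 5.41 in warm sfr3, 80.5 ± 1.01 in cold wild type and 104 ± 8.42 in warm wild type (SD, n = 2 each). Without cold sfr3 replicate 1, AT2G16630 remained first for LTP3 (0.984) and AT1G63840 first for LTP4 (0.992). UBP19, ATG8D and AT1G22550 then fell to ranks 10, 19 and 20 for LTP4, and ATG8D to rank 8 for LTP3. The other named genes stayed among the first 5. Under quantile normalization AT2G16630 was still first for LTP3 (0.988), while AT1G63840 had rank 3 for LTP4 (0.947) and UBP19 rank 2 (0.949). ATG8D then had r = 0.885 with LTP3 (rank 24) and 0.757 with LTP4 (rank 152). AT1G73820 had 0.826 with LTP4 (rank 63), and AT1G22550 had 0.898 (rank 15).

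**Figure D5:**
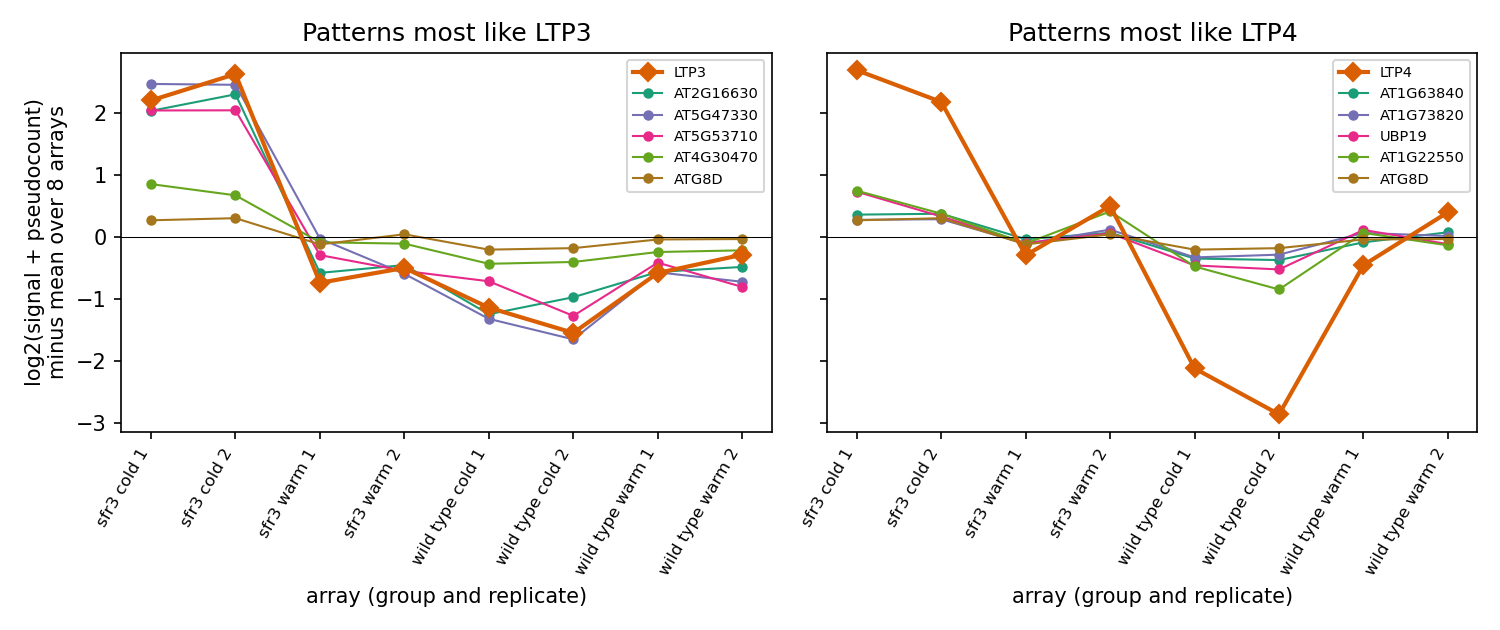
Log2(signal + pseudocount) minus its mean over the 8 arrays, by array, for LTP3 with the 5 genes of highest r (left) and for LTP4 with the 5 genes of highest r (right). AT2G16630, AT5G47330 and AT5G53710 cover nearly the range of LTP3, while the genes most like LTP4 move far less than LTP4 itself. AT5G47330 and AT5G53710 passed the minimum mean signal only through cold sfr3.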

How the data were processed

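The authors deposited 1 intensity per probe set and array, on a linear scale; the submitters' processing notes name MAS5 and GCOS, without versions. The treatment of background and mismatch probes is not stated there. Trimmed by 2% at each end, the mean signal of cold sfr3 replicate 1 came to 100, as computed from the table. This level is given for that array only. The table held 22810 probe sets, of which 64 controls were left out. The 60% with the highest mean signal were tested. In limma 3.58.1 (R 4.3.3), all 8 arrays were fitted with group means and an intensity trend (4 residual and 5.17 prior degrees of freedom), on the authors' signals after adding 2.17 and taking log2, which understates the change of dim genes. P-values were two-sided. The computation was tested on simulated data.

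Genes were named from the platform annotation, in which 13513 probe sets had 1 gene, 503 several and 8730 none, and the brightest probe set stood for a gene that had several. By rule, the text names the lipid transfer protein genes with a named probe set, up to 3 called members of the ABA and cuticle lists, tissue markers needed to describe their list, the 5 nearest measured neighbours a side and the 5 most similar genes. COR47, LEA4-5 and WSD1 were added after their values were seen, to account for whole lists. The opposite-pattern counts without cold sfr3 replicate 1 were also added after seeing the data. LTP3, LTP4 and the lists were chosen with earlier results of these data known. Probe sequences were not analysed here, so how far either probe set also detects the other transcript was not tested. Same-numbered replicates did not deviate together (correlations of -0.0867 to 0.0525), so the numbers were not used as a pairing. The number of arrays limits the precision.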

Additional observations from a re-analysis of the deposited data

Results flagged for a closer look

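LTP3 and LTP4 were singled out because cold and warm arrays separated in opposite directions in the genotypes. For LTP3 every cold array was higher than every warm array in sfr3 and lower in wild type, and the cold difference of sfr3 minus that of wild type was log2 3.95. For LTP4 the same held, with log2 4.80. Since these genes were chosen for this contrast, the difference was not tested. The same separation was found for 216 of 13648 probe sets (1.58%).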

How the results depend on the processing

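LTP3 and LTP4 kept the direction of their differences in every alternative for cold against warm in each genotype, for the genotypes in the cold and for the difference between cold responses. Over the alternatives these values were 2.79 to 3.25, -1.11 to -0.71, 3.51 to 3.97 and 3.63 to 4.16 for LTP3, and 1.93 to 2.73, -2.89 to -2.04, 4.56 to 5.30 and 4.37 to 5.22 for LTP4. The difference between the genotypes in the warm was -0.33 to -0.04 for LTP3 and took either sign for LTP4 (-0.30 to 0.56). Centring each array on its median shifted all probe sets by -0.24 for cold in sfr3, -0.25 for the genotypes in the cold and -0.31 for the difference between responses, and gave LTP3 3.51 and 3.63 for the last 2 of these. It also changed the share of higher calls for cold in sfr3, to 30.9% (1043 higher and 2331 lower) against 47.6%.

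Counts of calls depended on the fit. With array weights, where cold sfr3 replicate 1 had a weight of 0.23 against a median of 1.44, there were 2236 calls for cold in sfr3, 6600 for cold in wild type, 10 between the genotypes in the cold and 1 in the warm. A fit of only the arrays compared gave 1867, 6551, 4 and 1, and both fits called 8 of the 10 other lipid transfer protein genes in wild type. Without the intensity trend 11 probe sets were called between the genotypes in the cold. For the difference between responses 0 were called without the trend, 0 with median centring and 3 with quantile normalization, by limma, against 5 with all settings kept. The cause was not tested.

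Leaving out 1 array at a time gave 2027 to 7981 calls for cold in sfr3, 1500 to 6206 for cold in wild type, 6 to 5372 between the genotypes in the cold, 0 to 1 in the warm and 0 to 3802 for the difference between responses. The counts of 7981, 5372 and 3802 came without cold sfr3 replicate 2, when the lone array is assumed to vary like the other groups. Calls on the lipid transfer protein list were 4 to 9, 4 to 8, 0 to 5 and 0 to 4 for cold in sfr3, cold in wild type, the genotypes in the cold and the difference between responses. On the ABA list they were 0 to 2 for the genotypes in the cold and 0 to 2 for the difference between responses.

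With the replicate number as a block, the counts were 4026 for cold in sfr3, 3397 for cold in wild type, 16 between the genotypes in the cold, 0 in the warm and 4 for the difference between responses, 7 and 5 lipid transfer protein genes were called for cold in sfr3 and in wild type, and LTP3 and LTP4 kept their differences of 3.76 and 4.93 in the cold. Same-numbered replicates did not deviate together, which does not settle whether they were handled together.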
